A study of Canis lupus familiaris with 32 samples.

Results

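The most abundant transcripts of canine hip soft tissue are described here: 69 of the 24580 genes in the deposited table. They were selected on measured levels in these libraries. Fragment counts were put on the scale of CPM (counts divided by the library sum, times 1000000), averaged within each of the 7 groups, and a gene was taken where the average of the 7 group means reached 1000 CPM. The levels themselves are therefore a description with no test, and only differences between groups were tested. Abundance in this sense is the share of sequenced fragments, so a long transcript counts for more than a short one at the same number of molecules.

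The hip joint capsule and the teres ligament are dense connective tissues built by fibroblasts. Such cells spend a large share of their transcription on a small number of collagens, proteoglycans and other matrix proteins, and the output of fibrillar collagen genes is known to be high during growth and low in mature tissue. Muscle, fat, blood, synovial lining or vessels can be sampled along with such tissue and bring abundant transcripts of their own. The files list Ensembl identifiers without names, and 0 of the 24580 could be paired with a symbol, so no member is given a role and the tissue labels could not be checked against markers of these cell types.

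Total RNA freed of ribosomal RNA was sequenced from directional libraries, 32 in all from 25 dogs of a natural canine model of developmental hip dysplasia. The embryonic hip group held 3 libraries, in which capsule and ligament were not separated. Capsules came from 4 affected dogs (1 adult and 3 aged 4 months), 6 young dogs under 1 month of age and 5 adult controls. Ligaments came from 7 affected dogs (4 adults, replicates 1 to 4, and 3 dogs aged 4 months, replicates 5 to 7), 4 young dogs and 3 adult controls. Replicates of a group were different dogs, 7 dogs gave both tissues, and the labels give no allele, drug or batch.

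Library totals lay between 2857235 and 9895143 fragments (median 4993068), so a level of 1000 CPM stood for 2857 fragments or more in any library. A pair of control libraries lay below the others of their groups in the share of the 3 most abundant members. These members held 2.09% of fragments in control capsule replicate 5 (7.43 to 13.1% in the other control capsules). They held 1.96% in control ligament replicate 2 (6.32% and 8.15% in the others). Over genes averaging at least 10 CPM the pair did not stand apart. There, log2(CPM + 1) was correlated with the mean of the rest of the group. The correlation was 0.957 in control capsule replicate 5 (0.923 to 0.956 in the other control capsules). In control ligament replicate 2 it was 0.944 (0.939 and 0.913 in the others). Counts of calls that rest on them are given with and without them below.

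The members covered a wide range of levels. By average CPM, 7 stood above 10000 and 36 lay from 1000 to under 2000. The last inside the threshold were ENSCAFG00000002313 at 1051 CPM and ENSCAFG00000007666 at 1036 CPM, and the first outside were ENSCAFG00000006069 at 992.5 CPM and ENSCAFG00000019346 at 987.2 CPM. All 7 group means reached 1000 CPM for 27 members, and 21 reached it in every library. Another 10 members reached it in 6 group means, 14 in 5, 11 in 4 and 4 in 3. The other 3, singled out after their values were seen, were ENSCAFG00000023094 (embryonic hips and young capsules), ENSCAFG00000002307 (young ligaments and young capsules) and ENSCAFG00000009059 (embryonic hips alone).

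**Figure D1:**
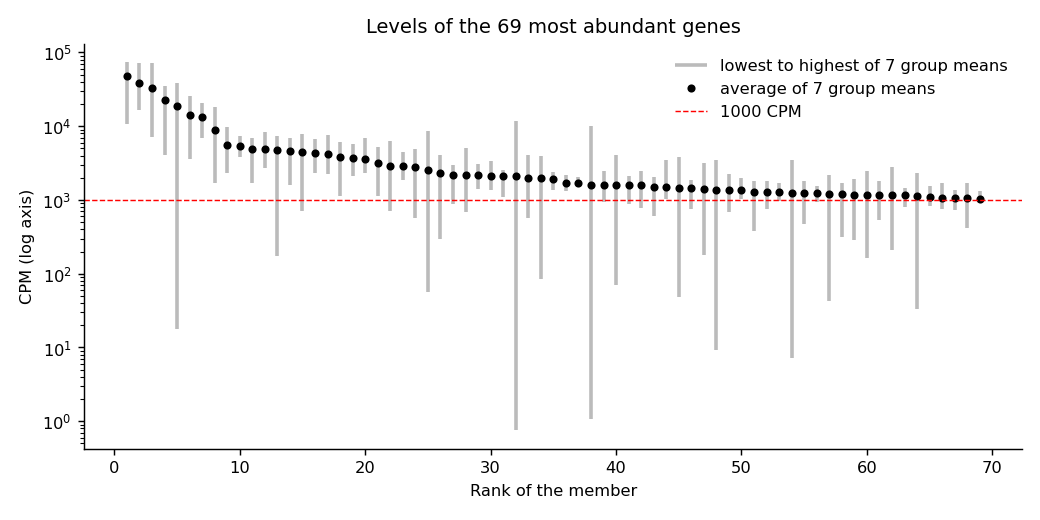
The 69 members in order of average level. Points show the average of the 7 group means in CPM (log axis), grey bars run from the lowest to the highest group mean, and the dashed line marks 1000 CPM. Long bars mark members held by a few groups, such as the members of rank 32 and 38.

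Of the 69 members, 9 would fall under 1000 CPM without the group in which they were highest. ENSCAFG00000011619 also would without 1 library, since its average of 1258 CPM dropped to 894.7 CPM once young capsule replicate 2 was left out. Taken per length, the set was different: 23 of the 69 were among the 69 genes of highest average FPKM (fragments scaled by transcript length and library size). ENSCAFG00000014812, first by fragments, averaged 9727 FPKM and had rank 3 on that scale. ENSCAFG00000014025, of rank 5 by fragments, averaged 171.8 FPKM and had rank 340, with a transcript 42.8 times as long as that of the median gene with at least 10 CPM. Members were long in general, at a median of 2.26 times that length, against 1.56 for genes of 100 to under 1000 CPM and 0.916 for genes of 10 to under 100 CPM.

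The members together held 19.6 to 44.6% of the fragments of a library. They held 19.8% ± 0.303 (SD, n = 3) in embryonic hips, 39.6% ± 3.95 (n = 6) in young capsules and 40.4% ± 4.73 (n = 4) in young ligaments. In affected capsules they held 38.6% ± 2.99 (n = 4), against 32.1% ± 2.24 (n = 5) in control capsules. In affected ligaments they held 34.1% ± 7.35 (n = 7), against 27.1% ± 3.75 (n = 3) in control ligaments. Affected ligaments spread the most, from 22.7 to 42.8%, and their 3 libraries from dogs aged 4 months held 31.9, 22.7 and 29.4%. The affected and control capsules did not overlap in this share (lowest affected 36.0%, highest control 35.9%). The share is a sum of the values that chose the members, so it was not tested.

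**Figure D2:**
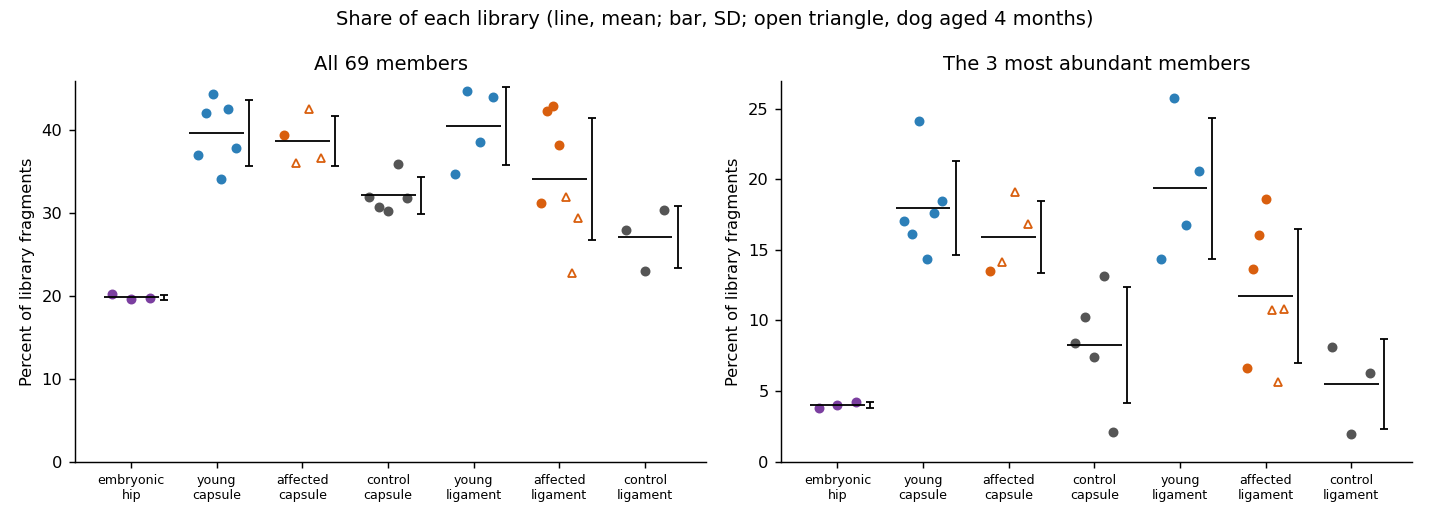
Share of each library's fragments (percent) held by all 69 members (left) and by the 3 most abundant members (right), by group. Points are libraries, open triangles dogs aged 4 months, lines group means and bars the SD. The 3 embryonic libraries lie near 20% and the young libraries between 34.05 and 44.6% on the left.

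The 3 most abundant members alone held 4.01% ± 0.193 (n = 3) of fragments in embryonic hips, 18% ± 3.33 (n = 6) in young capsules and 19.3% ± 4.99 (n = 4) in young ligaments. Affected capsules gave them 15.9% ± 2.56 (n = 4), against 8.27% ± 4.08 (n = 5) in control capsules. Affected ligaments gave them 11.7% ± 4.74 (n = 7), against 5.48% ± 3.18 (n = 3) in control ligaments. The first place in a library was held by 5 genes only. ENSCAFG00000014812 led 13 libraries, ENSCAFG00000002069 and ENSCAFG00000014025 led 7 each, ENSCAFG00000014345 led 3 and ENSCAFG00000017018 led 2.

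ENSCAFG00000014812 had the highest average level, 47309 CPM. Embryonic hips held 10105, 10238 and 11322 CPM of it. In capsules it stood at 57809, 73884, 101053 and 60435 CPM in affected dogs, at a median of 51324 CPM (39130 to 65818) in young dogs, and at 48193, 55896, 30801, 64268 and 11742 CPM in controls. The affected capsules overlapped the controls, and the embryonic hips were below every capsule. In ligaments it stood at a median of 64406 CPM (29490 to 122487) in affected dogs, at 31932, 67836, 47000 and 53589 CPM in young dogs, and at 46450, 7656 and 38175 CPM in controls.

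ENSCAFG00000002069 averaged 38307 CPM. Levels in embryonic hips were 18414, 20411 and 18564 CPM. Affected capsules held 24241, 43457, 50376 and 61838 CPM, young capsules a median of 67972 CPM (57186 to 92615), and control capsules 20991, 25865, 19086, 25781 and 6014 CPM. Every young capsule was above every control capsule, with the affected capsules between and overlapping both. Affected ligaments held a median of 21658 CPM (10930 to 40902), young ligaments 70165, 82920, 68533 and 61855 CPM, and control ligaments 25822, 10132 and 14270 CPM. The young ligaments were again above all controls and above all affected ligaments.

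ENSCAFG00000017018 averaged 32501 CPM, with 9792, 9292 and 12260 CPM in embryonic hips. The capsule values were 53260, 24352, 39354 and 46004 CPM in affected dogs, a median of 52377 CPM (39568 to 82719) in young dogs, and 15086, 20759, 24390, 41335 and 3131 CPM in controls. Control capsule replicate 4, at 41335 CPM, reached into the young range. The ligament values were a median of 18587 CPM (8402 to 45014) in affected dogs, 41182, 106849, 51745 and 90014 CPM in young dogs, and 9227, 1803 and 10703 CPM in controls. Young and control ligaments did not overlap.

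ENSCAFG00000014345, at an average of 22982 CPM, ran the other way with age. Embryonic hips had 3861, 4062 and 4374 CPM. Affected capsules had 62280, 16258, 17504 and 23270 CPM, young capsules a median of 7313 CPM (5521 to 8465), and control capsules 34623, 19534, 29980, 45332 and 47174 CPM. The adult affected capsule was the highest of all libraries, and the 3 affected capsules from dogs aged 4 months were much lower. Affected ligaments had a median of 27955 CPM (19801 to 56590), young ligaments 13095, 13453, 14195 and 13726 CPM, and control ligaments 30257, 45234 and 30787 CPM. Young libraries were below all controls in both tissues.

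ENSCAFG00000014025 averaged 18541 CPM and separated the tissues. Embryonic hips contained 38431, 34424 and 35189 CPM. Affected capsules contained 13003, 37116, 28055 and 25724 CPM, young capsules a median of 19493 CPM (9236 to 100487), and control capsules 2247, 3488, 54537, 6061 and 77478 CPM. Affected ligaments contained a median of 23.9 CPM (7.37 to 116), young ligaments 12.35, 28.6, 14.2 and 16.45 CPM, and control ligaments 17.4, 85.2 and 11.7 CPM. No capsule was under 2247 CPM and no ligament over 116 CPM, and the capsules of each group differed widely among themselves.

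ENSCAFG00000032525 averaged 14383 CPM and was low in embryonic hips, at 3633, 3361 and 3676 CPM. Its capsule levels were 9019, 19461, 15901 and 11162 CPM in affected dogs, a median of 9308 CPM (7850 to 10105) in young dogs, and 19542, 24538, 13566, 16593 and 22625 CPM in controls. Its ligament levels were a median of 18300 CPM (13930 to 21805) in affected dogs, 11087, 11723, 10573 and 10669 CPM in young dogs, and 22844, 27530 and 26173 CPM in controls. Young libraries were below all controls in both tissues, and the affected ligaments were also all below the control ligaments.

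ENSCAFG00000030746, at 13493 CPM on average, varied widely from dog to dog. Embryonic hips showed 6878, 6198 and 7659 CPM. Affected capsules showed 33954, 8528, 22201 and 11453 CPM, young capsules a median of 8247 CPM (4430 to 14726), and control capsules 37209, 7746, 10840, 30616 and 16170 CPM. The groups overlapped throughout. Affected ligaments showed a median of 13329 CPM (3686 to 37260), young ligaments 3764, 7448, 11770 and 18701 CPM, and control ligaments 4596, 2077 and 27141 CPM.

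ENSCAFG00000012226 averaged 8893 CPM and was highest in young ligaments. It had 1693, 1619 and 1749 CPM in embryonic hips. Among capsules it had 8037, 9059, 11677 and 7200 CPM in affected dogs, a median of 11021 CPM (9558 to 13534) in young dogs, and 8491, 8848, 7328, 9453 and 4186 CPM in controls. Among ligaments it had a median of 6697 CPM (5550 to 9079) in affected dogs, 17150, 15181, 18777 and 21179 CPM in young dogs, and 10252, 5672 and 6585 CPM in controls. The 4 young ligaments were above every other library.

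ENSCAFG00000019848 averaged 5605 CPM. Embryonic hips were even, at 3932, 3887 and 4067 CPM. The affected capsules measured 9111, 4128, 6762 and 5085 CPM, the young capsules a median of 7186 CPM (5879 to 10189), and the control capsules 4661, 4685, 3382, 5891 and 1580 CPM. Young and control capsules overlapped narrowly, at 5879 and 5891 CPM. The affected ligaments measured a median of 4838 CPM (2414 to 10306), the young ligaments 7182, 9186, 10074 and 12092 CPM, and the control ligaments 3243, 819.1 and 2844 CPM. Young ligaments were above all control ligaments.

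ENSCAFG00000004529 averaged 5473 CPM and was the most even of the 10, its highest group mean being 1.92 times its lowest. Embryonic hips read 3703, 4028 and 3600 CPM. Affected capsules read 3873, 5866, 7098 and 5856 CPM, young capsules a median of 4002 CPM (2611 to 5971), and control capsules 5476, 5667, 3957, 4143 and 5084 CPM. The capsule groups overlapped. Affected ligaments read a median of 7347 CPM (5748 to 8894), young ligaments 6682, 3960, 6817 and 5069 CPM, and control ligaments 6154, 8171 and 7473 CPM.

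The members of rank 1 and 3 differed in their ratio by age. The ratio of ENSCAFG00000014812 to ENSCAFG00000017018 within a library does not depend on the scaling between libraries, and both levels entered the rule, so it is given with no test. Its median was 1.03 (0.924 to 1.10) in embryonic hips, 0.911 (0.796 to 1.25) in young capsules and 0.705 (0.595 to 0.908) in young ligaments. In affected capsules it was 1.94 (1.09 to 3.03), against 2.69 (1.26 to 3.75) in control capsules. In affected ligaments it was 4.05 (2.09 to 6.48), against 4.25 (3.57 to 5.03) in control ligaments. All young libraries were below all control libraries of the same tissue, while affected and control libraries overlapped. The other pairs of the 3 most abundant members separated age less. ENSCAFG00000014812 over ENSCAFG00000002069 was lower in all young than in all control capsules. In ligaments that ratio overlapped (young 0.455 to 0.866, control 0.756 to 2.68). ENSCAFG00000017018 over ENSCAFG00000002069 overlapped between young and control libraries in both tissues.

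**Figure D3:**
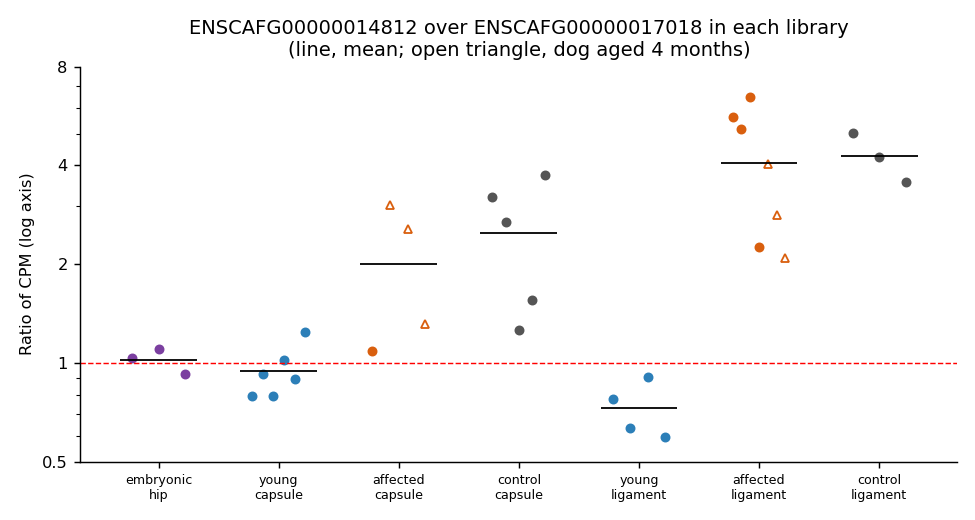
Ratio of the CPM of ENSCAFG00000014812 to that of ENSCAFG00000017018 in each library (log axis), by group. Lines are group means, open triangles dogs aged 4 months, and the dashed line marks equal levels. Young ligaments lie under 1 and control ligaments between 3.57 and 5.03.

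The remaining 59 members averaged 1036 to 4882 CPM. Over all 69, the highest group mean was a median of 4.08 times the lowest, against 2.30 times for the 1600 genes of 100 to under 1000 CPM and 2.21 times for the 7798 genes of 10 to under 100 CPM. It was under 2 times for 11 members (15.9%), against 38.4% and 39.6% of those genes, and at least 10 times for 19 members (27.5%), against 8.38% and 7.13%. Embryonic hip was the lowest group for 40 members (58%), against 30.9% and 16.3%. A gene high in any group is the more likely to be a member, so these shares describe the set and support nothing further. The most members peaked in control ligaments (19) and young ligaments (18), then in young capsules and embryonic hips (9 each), affected ligaments (7), control capsules (4) and affected capsules (3).

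Differences between groups were tested with edgeR's quasi-likelihood test over all genes that passed a filter on low counts, with Benjamini-Hochberg adjustment, and an adjusted p under 0.05 made a call. The log2 fold changes carry scaling factors from the trimmed mean of M-values (TMM), a method that sets the bulk of genes level between libraries, so they need not equal the ratio of the CPM values. In these bulk tissues, fewer cells of a type and less RNA per cell cannot be told apart. Over the 8 comparisons below, 24 members were called in 4, 17 in 3, 20 in 2, 3 in 1 and 3 in none. ENSCAFG00000006073 and ENSCAFG00000002313 were called in 5 (both already named by the rule for single comparisons). Calls per gene were not counted over all genes, so these numbers show no trait particular to the members. The 3 that were never called, singled out after their values were seen, were ENSCAFG00000017986, ENSCAFG00000016020 and ENSCAFG00000007666.

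**Figure D4:**
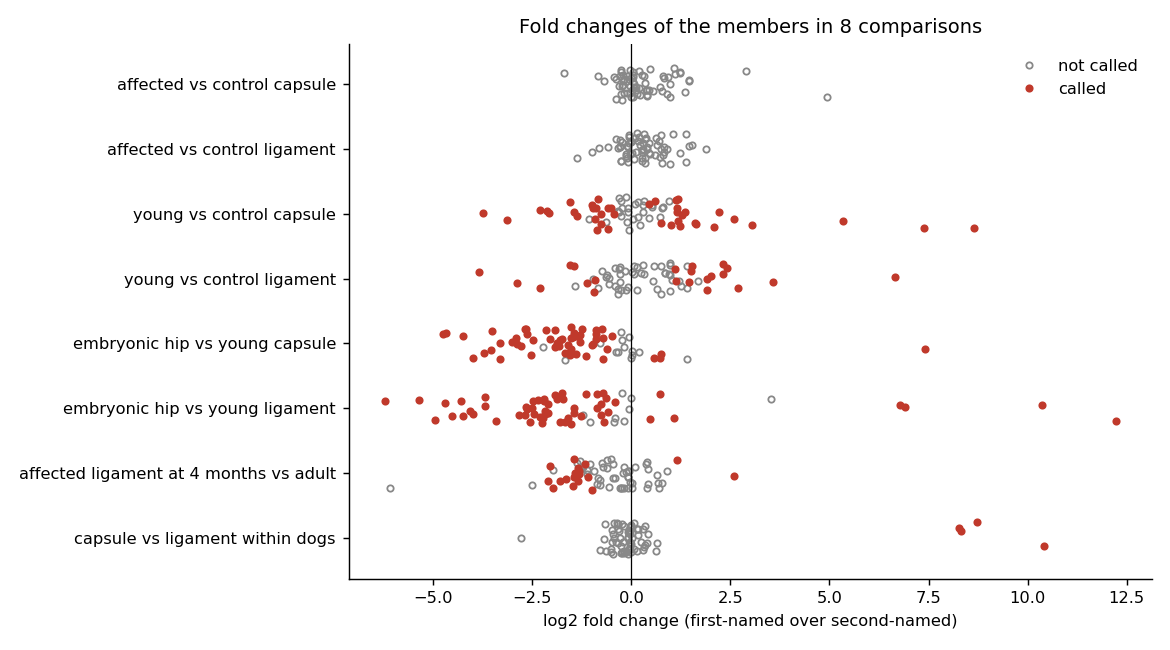
Log2 fold changes (TMM-scaled, first-named over second-named group) of the members in the 8 comparisons. Each point is a member, filled where edgeR called it at an adjusted p under 0.05. No member was called between affected and control libraries, most were called lower in embryonic hips, and 4 stood far to the right between capsule and ligament.

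Dysplastic and control hips were set side by side in each tissue. In affected against control capsules, 0 of 68 members tested were called by edgeR, against 0.236% of all 12718 genes tested. An unadjusted p under 0.05 was found for 11 members and for 783 of all genes. limma on log2(FPKM + 1) called 0 members as well. DESeq2 called 4 members, 3 of them higher in affected capsules, against 139 of all 14570 genes it tested. Over the members the median log2 fold change was 0.06, and over all genes 0.02. All control capsules were adult and 3 of the 4 affected capsules came from dogs aged 4 months, so age and disease cannot be told apart in most of these libraries, and 0 members were called with age class in the model.

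The 4 members that DESeq2 called were chosen for mention after their values were seen. ENSCAFG00000008404 stood at 825.6, 988.1, 1174 and 476 CPM in affected capsules, against 3247, 2199, 5325, 3041 and 1984 CPM in control capsules. The groups did not overlap, and the log2 fold change was -1.69 (SE 0.38, edgeR adjusted p = 0.13, DESeq2 adjusted p = 0.00059). This gene is a member in part through its high levels in the control groups of both tissues. ENSCAFG00000019189 stood at 2343, 849, 1505 and 1591 CPM in affected capsules, against 784.3, 726.1, 269.1, 970 and 440.1 CPM in control capsules. One affected library lay within the control range, and the log2 fold change was 1.45 (SE 0.39, edgeR adjusted p = 0.25, DESeq2 adjusted p = 0.026). ENSCAFG00000017855 averaged 6276 ± 2275 CPM in affected capsules and 2586 ± 969 CPM in control capsules (SD, n = 4 and 5), a log2 fold change of 1.45 (SE 0.40, edgeR adjusted p = 0.27, DESeq2 adjusted p = 0.021). ENSCAFG00000008582 averaged 3645 ± 705 CPM in affected capsules and 2135 ± 599 CPM in control capsules, a log2 fold change of 0.92 (SE 0.28, edgeR adjusted p = 0.39, DESeq2 adjusted p = 0.029). With age class in the edgeR model, the log2 fold change of ENSCAFG00000017855 was 0.38. Those of ENSCAFG00000008404, ENSCAFG00000019189 and ENSCAFG00000008582 were then -1.82, 1.99 and 1.18. These 4 values set affected capsule replicate 1, the 1 adult of its group, against the control capsules, so they describe 1 dog.

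Affected and control ligaments gave the same count. In edgeR, 0 of 68 members were called, against 0% of all 12937 genes tested, while 8 members and 1058 of all genes had an unadjusted p under 0.05. DESeq2 and limma called 0 members too. With the 4 adult affected ligaments alone the count was again 0, as it was over all 12505 genes tested. In that fit 24 members and 2374 of all genes had an unadjusted p under 0.05. The median log2 fold change was 0.27 over the members and 0.03 over all genes. Values stand here for the 3 members of lowest p, chosen after they were seen. ENSCAFG00000010290 had a median of 1326 CPM (415.8 to 2707) in affected ligaments, against 3645, 6170 and 2256 CPM in control ligaments (edgeR adjusted p = 0.60 at a log2 fold change of -1.38, SE 0.42). ENSCAFG00000019189 had a median of 1364 CPM (706 to 3073) in affected ligaments, against 501, 240.5 and 625.9 CPM in control ligaments (edgeR adjusted p = 0.60 at a log2 fold change of 1.89, SE 0.58). ENSCAFG00000008404 had a median of 1598 CPM (856.2 to 2724) in affected ligaments, against 4078, 5111 and 2172 CPM in control ligaments (edgeR adjusted p = 0.61 at a log2 fold change of -1.0, SE 0.34). Of these, ENSCAFG00000019189 alone did not overlap between the groups.

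The affected ligaments differed among themselves by age. Between the 3 ligaments of affected dogs aged 4 months and the 4 of affected adults, 2 of 68 members were called higher, against 6.24% of all 12619 genes tested, and 16 lower, against 8.35%. The median log2 fold change was -0.61 over the members and 0.03 over all genes. The count of calls rested on single libraries: 6, 8, 5 and 7 members were called without affected ligament replicates 2, 3, 6 and 7. Of all genes, 803, 826, 549 and 842 were called in those fits. DESeq2 called 33 members, against 2414 of all 13283 genes it tested. Of the members called, 2 and 15 would average 1000 CPM without the side on which they were higher. With libraries scaled by their totals, 5 members were higher and 14 lower, against 2145 and 524 of all 12619 genes.

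ENSCAFG00000006073 was the member that rose most at 4 months. It had 236.6, 420.7 and 611.2 CPM at 4 months, against 71, 29.65, 79.1 and 46.35 CPM in affected adults, with no overlap (log2 2.58, SE 0.38, edgeR adjusted p = 0.0076). ENSCAFG00000002313 had 2379, 1333 and 1515 CPM at 4 months, against 715.9, 347.3, 645.8 and 860.5 CPM in affected adults (log2 1.16, SE 0.33, adjusted p = 0.041), also without overlap. Its call was lost without any of replicates 1, 2, 3, 5, 6 or 7 (adjusted p 0.053 to 0.14). Among the falling members, ENSCAFG00000001433 had 1602, 1242 and 1098 CPM at 4 months, against 3314, 6249, 4921 and 2626 CPM in affected adults (log2 -2.05, SE 0.41, edgeR adjusted p = 0.014), a call lost without replicate 6 (adjusted p = 0.052). ENSCAFG00000009462 had 1588, 609.8 and 647.3 CPM at 4 months, against 4067, 3604, 4135 and 1401 CPM in affected adults. It is given as values only, since it reached the average of 1000 CPM through its high level in affected ligaments.

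Age was compared in capsules between young dogs and adult controls. Of 69 members tested, 21 were called higher in young capsules, against 18.8% of all 12589 genes tested, and 20 lower, against 19.6%. Without the members that would average under 1000 CPM if young capsules were left out, 19 were higher, and all 20 lower ones would still average 1000 CPM without the control capsules. Members had a median log2 fold change of 0.10 and all genes one of 0.01. Without control capsule replicate 5, the counts were 23 higher and 18 lower, against 2027 and 2176 of all 12706 genes tested. These control libraries are also those of the affected comparison.

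Among the 10 most abundant members, 4 were called higher in young capsules and 2 lower. ENSCAFG00000002069 was 4.23-fold higher (log2 2.08, SE 0.34, edgeR adjusted p = 0.00033). ENSCAFG00000017018 was 3.10-fold higher (log2 1.63, SE 0.48, adjusted p = 0.016), and ENSCAFG00000019848 2.17-fold higher (log2 1.12, SE 0.29, adjusted p = 0.0077). ENSCAFG00000012226 was 1.69-fold higher (log2 0.75, SE 0.23, edgeR adjusted p = 0.02), a call lost with libraries scaled by their totals (adjusted p = 0.076). ENSCAFG00000014345 was 4.26-fold lower (log2 -2.09, SE 0.27, edgeR adjusted p = 6.5e-05), and ENSCAFG00000032525 1.85-fold lower (log2 -0.89, SE 0.21, adjusted p = 0.0038). ENSCAFG00000014812, the most abundant, was not called (log2 0.51, SE 0.36, edgeR adjusted p = 0.28).

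The largest changes in capsule belonged to members further down the order. ENSCAFG00000006073 had a median of 8300 CPM (1779 to 14355) in young capsules, against 34.3, 34.3, 86.9, 117 and 5.69 CPM in control capsules (log2 7.39, SE 0.85, edgeR adjusted p = 8e-05). ENSCAFG00000023094 had a median of 1824 CPM (290.2 to 8533) in young capsules, against 0.35, 0.207, 28.2, 4.55 and 8.24 CPM in control capsules (log2 8.64, SE 1.49, adjusted p = 0.0015). Without control capsule replicate 3 that log2 fold change was 9.89, and without young capsule replicate 5 it was 7.73. Both genes were higher in every young capsule than in any control. Without the young groups of both tissues, ENSCAFG00000006073 would average under 1000 CPM, so it is a member in part through its high young levels.

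The members that fell furthest did so in all young capsules. ENSCAFG00000008404 had a median of 226.2 CPM (125.5 to 258.2) in young capsules, against 3247, 2199, 5325, 3041 and 1984 CPM in control capsules (log2 -3.75, SE 0.26, edgeR adjusted p = 5.5e-07). ENSCAFG00000010290 had a median of 330.7 CPM (262.1 to 427) in young capsules, against 3086, 3538, 3656, 3129 and 3453 CPM in control capsules (log2 -3.15, SE 0.19, adjusted p = 1.5e-07). Neither gene overlapped between the groups. Without the control groups of both tissues, each would average under 1000 CPM, so both are members in part through their high control levels.

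Young and control ligaments gave fewer calls, with 4 and 3 libraries. Of 68 members tested, 14 were called higher in young ligaments, against 5.57% of all 12701 genes tested, and 8 lower, against 4.74%. Of these, 11 and 7 would average 1000 CPM without the side on which they were higher. The median log2 fold change was 0.27 over the members and 0.01 over all genes. With libraries scaled by their totals, 14 were higher and 14 lower, against 515 and 1177 of all 12701 genes. DESeq2 called 23 higher and 12 lower, against 1013 and 968 of the 14940 genes it tested. Without control ligament replicate 2, edgeR called 11 higher and 6 lower, against 422 and 368 of all 12995 genes.

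The pair called furthest up in young ligaments were ENSCAFG00000006073 and ENSCAFG00000017018. ENSCAFG00000006073 had 10262, 3583, 6777 and 5123 CPM in young ligaments, against 124.3, 76.65 and 24.5 CPM in control ligaments (edgeR adjusted p = 0.0011 at a log2 fold change of 6.65, SE 0.65), and the log2 fold change was 7.27 without control ligament replicate 1. As in capsules, its membership rests in part on the young groups of both tissues. ENSCAFG00000017018, whose values stand above, was 11.9-fold higher (log2 3.57, SE 0.71, adjusted p = 0.014). ENSCAFG00000002069 was 4.99-fold higher (log2 2.32, SE 0.40, edgeR adjusted p = 0.0079). ENSCAFG00000012226 and ENSCAFG00000019848 were 2.87-fold (log2 1.52, SE 0.32, edgeR adjusted p = 0.016) and 4.95-fold higher (log2 2.31, SE 0.50, adjusted p = 0.019), and both calls were lost without young ligament replicate 3 (adjusted p 0.052 and 0.053).

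Lower in young ligaments were the same pair as in capsules by the rule for named genes. ENSCAFG00000010290 had 348.8, 291.4, 185.4 and 109.7 CPM in young ligaments, against 3645, 6170 and 2256 CPM in control ligaments (edgeR adjusted p = 0.0014 at a log2 fold change of -3.85, SE 0.42). ENSCAFG00000008404 had 455.3, 542.1, 458.7 and 248.6 CPM in young ligaments, against 4078, 5111 and 2172 CPM in control ligaments (edgeR adjusted p = 0.0015 at a log2 fold change of -2.89, SE 0.32). No values overlapped. ENSCAFG00000014345 was 2.16-fold lower (log2 -1.11, SE 0.25, edgeR adjusted p = 0.023) and ENSCAFG00000032525 1.94-fold lower (log2 -0.96, SE 0.23, adjusted p = 0.031). The call of ENSCAFG00000014345 was lost without control replicate 2 or young replicates 1, 3 or 4 (edgeR adjusted p 0.052 to 0.09), and that of ENSCAFG00000032525 without control replicates 2 or 3 or young replicates 1, 3 or 4 (adjusted p 0.051 to 0.12).

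**Figure D5:**
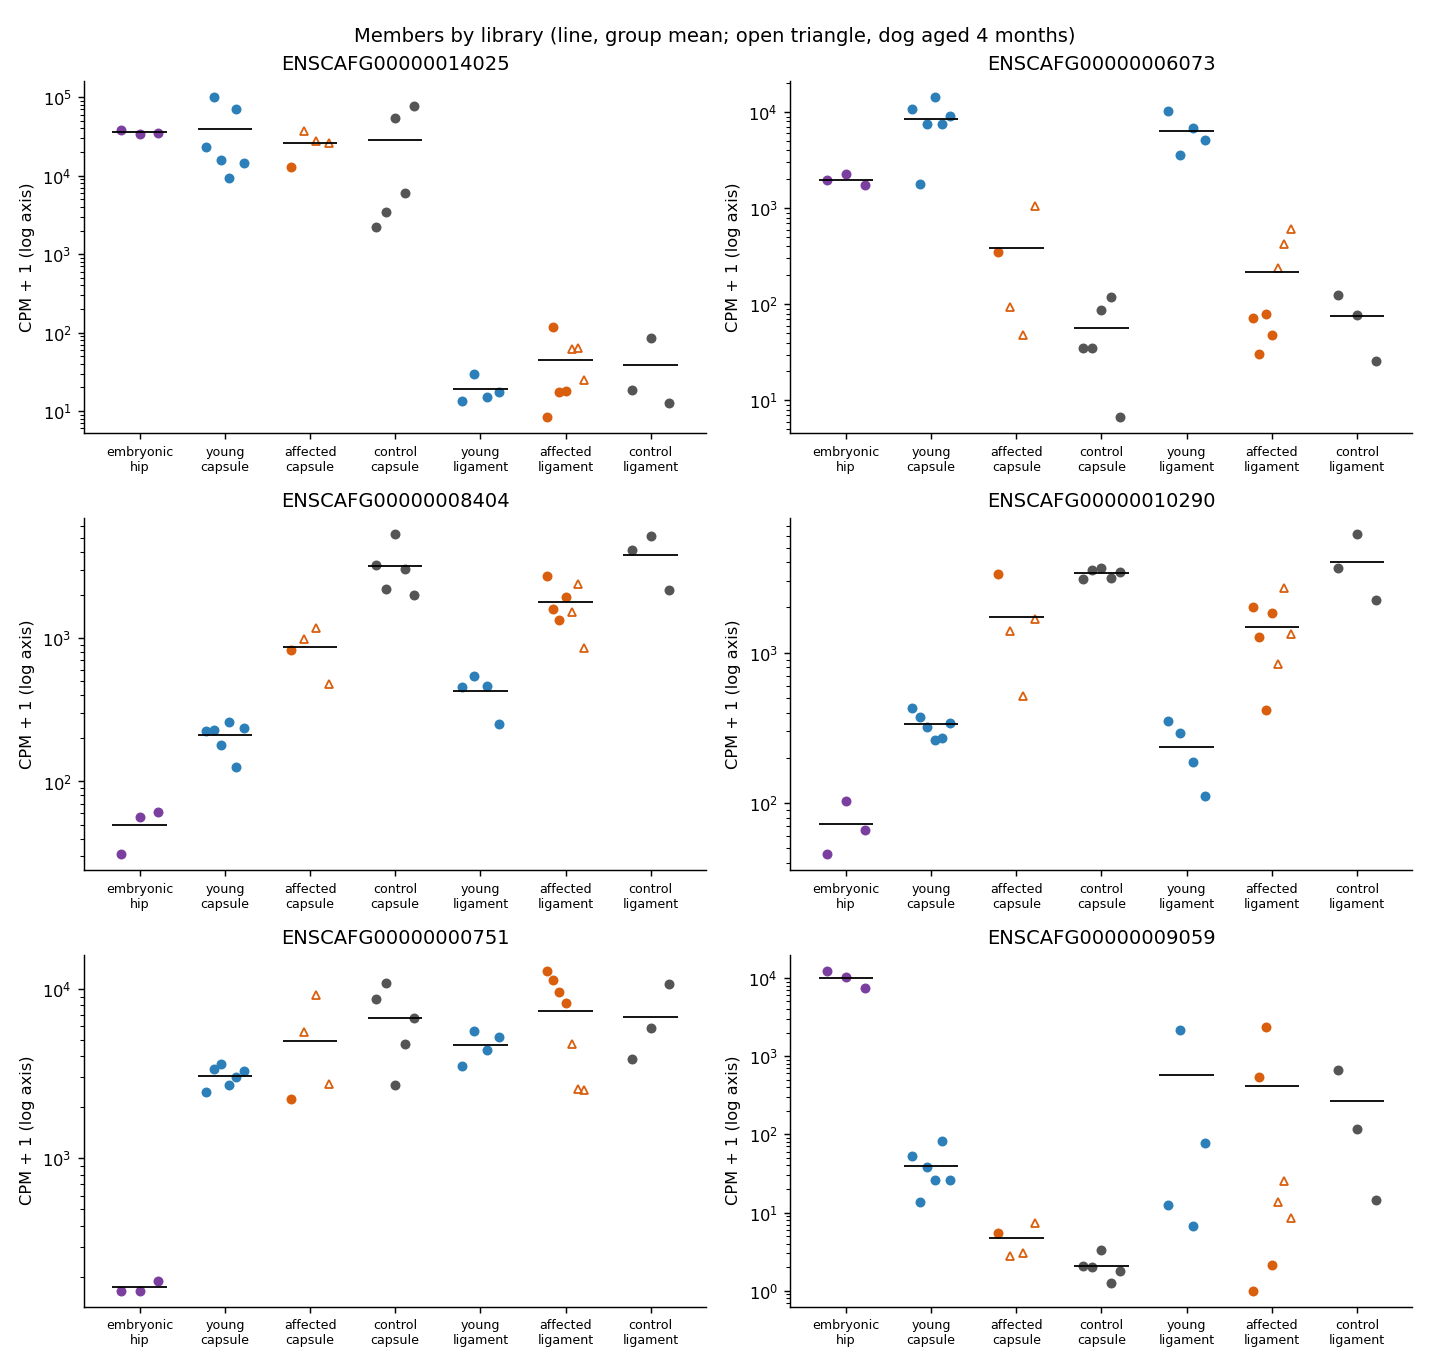
Levels of 6 members (CPM + 1, log axis) in each library, by group. Lines are group means and open triangles dogs aged 4 months. ENSCAFG00000014025 is at 2247 CPM or more in capsules and at 116 CPM or less in ligaments, ENSCAFG00000006073 is highest in young dogs, ENSCAFG00000008404 and ENSCAFG00000010290 are higher in controls than in young dogs, ENSCAFG00000000751 is under 200 CPM in embryonic hips, and ENSCAFG00000009059 is near 10000 CPM there.

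Embryonic hips stood furthest from the rest. Against young capsules, 4 of 69 members were called higher in embryonic hips, where 20.3% of all 13585 genes tested were higher, and 51 lower, where 22.8% of all genes were lower. Against young ligaments, 7 of 69 were called higher, with 23.0% of all 13462 genes tested, and 53 lower, with 24.2% of all genes. Of the members called, 3 higher and 49 lower in the capsule comparison, and 6 higher and 50 lower in the ligament comparison, would average 1000 CPM without the side on which they were higher. The median log2 fold change was -1.53 over the members and -0.02 over all genes against young capsules, and -1.80 over the members and 0.00 over all genes against young ligaments. Embryonic libraries hold the undivided hip, so age and tissue cannot be told apart here.

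The members held a smaller share of embryonic libraries, and their fragments are part of any library total. With scaling by library totals the median of all genes shifted by 0.57 (log2) in both embryonic comparisons. How much of that shift came with the members was not tested. Against young capsules 40 members were then lower and 8 higher, beside 1302 lower and 6586 higher of all 13585 genes. Against young ligaments 43 were lower and 8 higher, beside 1522 lower and 6545 higher of all 13462 genes. The members' median then was -0.93 against 0.55 for all genes in the capsule comparison, and -1.19 against 0.57 in the ligament comparison.

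ENSCAFG00000000751 was the member called furthest down against young capsules. It stood at 164.5, 164.2 and 187.8 CPM in embryonic hips, against a median of 3157 CPM (2447 to 3624) in young capsules (log2 -4.75, SE 0.25, edgeR adjusted p = 6e-08). In young ligaments it stood at 3497, 5659, 4366 and 5223 CPM (log2 of embryonic over young ligament -5.36, SE 0.28, adjusted p = 3.3e-07). No embryonic library came near a young one. ENSCAFG00000003102 stood at 46.8, 42.3 and 40.25 CPM in embryonic hips, against a median of 677.8 CPM (636.7 to 1086) in young capsules (log2 -4.69, SE 0.21, edgeR adjusted p = 1.3e-08). The young ligaments held more of it still, 1882, 1772, 2829 and 2153 CPM (log2 of embryonic over young ligament -6.22, SE 0.24, adjusted p = 7.6e-08).

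The 3 most abundant members were all called lower in embryonic hips. ENSCAFG00000014812 was 7.40-fold lower than in young capsules (log2 -2.89, SE 0.27, edgeR adjusted p = 3.9e-06) and 7.19-fold lower than in young ligaments (log2 -2.85, SE 0.31, adjusted p = 4.5e-05). ENSCAFG00000002069 was 5.61-fold lower than in young capsules (log2 -2.49, SE 0.22, edgeR adjusted p = 3.5e-06) and 5.52-fold lower than in young ligaments (log2 -2.47, SE 0.20, adjusted p = 6.9e-06). ENSCAFG00000017018 was 8.12-fold lower than in young capsules (log2 -3.02, SE 0.31, edgeR adjusted p = 8.9e-06) and 10.6-fold lower than in young ligaments (log2 -3.41, SE 0.41, adjusted p = 0.00011). Relative to young capsules, the embryonic values of these genes lay below the whole range in each case.

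Few members were higher in embryonic hips. ENSCAFG00000009059 stood at 12401, 10219 and 7521 CPM there, against a median of 31.2 CPM (12.7 to 80.4) in young capsules and 11.4, 2184, 5.81 and 75.9 CPM in young ligaments. ENSCAFG00000023094 stood at 12769, 11611 and 10773 CPM in embryonic hips, against 290.2 to 8533 CPM in young capsules and 1.44, 1.01, 0.918 and 3.32 CPM in young ligaments. Both reached the average of 1000 CPM through the embryonic group alone, so they are given without a test. ENSCAFG00000014025 was called higher against young ligaments (log2 10.4, SE 0.40, edgeR adjusted p = 7.6e-08) and not against young capsules (log2 -0.79, SE 0.87, adjusted p = 0.50).

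The other 3 members called higher against young capsules were ENSCAFG00000003120, ENSCAFG00000019158 and ENSCAFG00000002656, of which ENSCAFG00000019158 and ENSCAFG00000002656 were added after their values were seen. ENSCAFG00000003120 stood at 3500, 3455 and 3304 CPM in embryonic hips, against a median of 1431 CPM (1086 to 1619) in young capsules (log2 0.75, SE 0.13, edgeR adjusted p = 0.0007). ENSCAFG00000019158 averaged 3494 ± 94.6 CPM in embryonic hips and 1422 ± 145 CPM in young capsules (SD, n = 3 and 6; log2 0.72, SE 0.14, adjusted p = 0.0012). ENSCAFG00000002656 averaged 6838 ± 762 CPM in embryonic hips and 3159 ± 810 CPM in young capsules (log2 0.57, SE 0.17, edgeR adjusted p = 0.019). None of the 3 overlapped, and the call of ENSCAFG00000002656 was lost without embryonic replicates 1 or 2 (adjusted p 0.10 and 0.079). All 3 were also called higher against young ligaments, at log2 0.46, 1.07 and 0.72 (SE 0.14, 0.13 and 0.17, edgeR adjusted p = 0.018, 8.1e-05 and 0.0065), the first of these calls being lost without embryonic replicates 1 or 2 (adjusted p 0.083 and 0.074).

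The 7 dogs with both tissues, 3 of them affected and aged 4 months, 3 young and 1 an adult control, gave a comparison of capsule with ligament inside each animal. Of 69 members tested, 4 were called higher in capsule, against 2.97% of all 13956 genes tested, and 0 lower, against 0.430%. At an unadjusted p under 0.05 stood 11 members and 1880 of all genes. DESeq2 called 4 members higher and 4 lower, against 573 and 131 of all 15213 genes it tested. Members had a median log2 fold change of -0.06 and all genes one of -0.03. Without the dog of affected capsule replicate 3, 3 members were higher and 4 lower, against 473 and 147 of all 13701 genes.

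ENSCAFG00000014025 had the largest difference of the 4. By dog, it stood at 37116, 28055, 100487, 25724, 23173, 14464 and 54537 CPM in capsule, against 60.5, 62.3, 28.6, 23.9, 12.35, 16.45 and 17.4 CPM in ligament. It was higher in capsule in 7 of 7 dogs (log2 10.4, SE 0.51, edgeR adjusted p = 1.4e-07). ENSCAFG00000023094 stood at 4.85, 6.91, 290.2, 976.5, 3157, 1672 and 28.2 CPM in capsule, against 10.46, 0.30, 1.01, 0.641, 1.44, 3.32 and 0 CPM in ligament. The dog of affected capsule replicate 2 ran the other way, and the call (log2 8.32, SE 1.70, edgeR adjusted p = 0.035) was lost without any of the other 6 dogs (adjusted p 0.071 to 0.13), with libraries scaled by their totals (0.052) and in limma on log2(FPKM + 1) (log2 4.64, adjusted p = 0.083).

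ENSCAFG00000011619 and ENSCAFG00000005717 reached the average of 1000 CPM through their capsule and embryonic levels, so their values are given without a test. In the same order of dogs, ENSCAFG00000011619 stood at 1978, 2756, 16214, 850.1, 884.2, 448 and 7010 CPM in capsule, against 3.49, 4.20, 8.49, 3.85, 6.74, 4.65 and 11.3 CPM in ligament. ENSCAFG00000005717 stood at 3151, 2343, 8747, 2156, 2373, 1505 and 3751 CPM in capsule, against 14.7, 10.2, 17.4, 8.12, 7.22, 6.48 and 13.2 CPM in ligament. Each was higher in capsule in every dog. The counts behind the ligament values ran from 14 to 84 fragments for ENSCAFG00000011619 and from 34 to 172 for ENSCAFG00000005717.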

How the data were processed

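The submitters' processing notes list Cuffdiff 2.2.1, TopHat2 2.0.13, Bowtie2 2.2 and cutadapt 1.8, and the genome canFam3. Which annotation was used, and whether counting used strand, is not given in the sources used here. For every gene in each library, the authors deposited an estimated count of unscaled fragments, a scaled fragment signal and an FPKM value, per the file headers. Of the deposited estimated counts, 0.332% were off a whole number by more than 1e-06, none of them among the members, and all were rounded for testing. FPKM served an alternative test and the ranking per length, and the ratio of the signal to FPKM gave relative transcript length. The separate capsule and ligament tables were not used.

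CPM values printed are relative to the library total and not TMM-scaled, as the rule for members requires. Groups were taken from the sample titles and age classes from the labels. Each comparison used edgeR 4.0.16 in R 4.3.3 on the libraries compared, with filterByExpr as filter, TMM factors and its quasi-likelihood test with robust estimation, and standard errors come from the F statistic. Capsule against ligament carried the dog as a block. Genes tested varied from 12589 to 13956. The p-values measure the spread between dogs.

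The members and the gene lists were chosen with earlier results of these data known. Lists of matrix, muscle, fat, blood, cartilage and other markers were drawn up by symbol and could not be used, since no ID was paired with a name. For the same reason the rule for named genes was held to 2 in each direction: the members with the largest absolute log2 fold change among those called, beside the 10 of highest average level and 2 on either side of the threshold. All 4 members called between capsule and ligament were named. Fragments shared by near-identical gene copies or overlapping genes are an uncertainty for each ID. Alternatives were DESeq2 1.42.0, its size factors in edgeR (RLE), no filter, scaling without the members, limma 3.58.1 on log2(FPKM + 1) for genes with a mean FPKM of at least 1, each library left out, a replicate block and age class; scaling by library totals was added after seeing the data.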

Additional observations from a re-analysis of the deposited data

Results flagged for a closer look

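Levels of 23 members (the 10 most abundant and those named in a comparison) and the summed shares were examined for outlying libraries. In the 5 groups of 4 to 7 libraries, 125 sets of values were searched for a library far from the others of its group. Such a library was found in 12 sets, each time above the others. The limit used flags about 1 in 20 sets of independent, normally distributed values. CPM values need not be so distributed and the sets share libraries, so the 12 cannot be set against that rate. No cause was tested for any of the 12.

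Of the 10 most abundant members, ENSCAFG00000017018 stood at 45014 CPM in affected ligament replicate 4, with the other affected ligaments at 8402 to 21824 CPM. ENSCAFG00000014345 stood at 62280 CPM in affected capsule replicate 1, the 1 adult of its group, with the others at 16258 to 23270 CPM.

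ENSCAFG00000023094 had such a library in 4 groups. It stood at 976.5 CPM in affected capsule replicate 4 (others 4.85 to 13.9 CPM), at 8533 CPM in young capsule replicate 5 (others 290.2 to 3157 CPM), at 10.46 CPM in affected ligament replicate 5 (others 0 to 0.802 CPM) and at 28.2 CPM in control capsule replicate 3 (others 0.207 to 8.24 CPM). ENSCAFG00000009059, near 10000 CPM in embryonic hips, stood at 2350 CPM in affected ligament replicate 3 (others 0 to 545 CPM) and at 2184 CPM in young ligament replicate 2 (others 5.81 to 75.9 CPM).

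Young capsule replicate 2 was far from the other young capsules in ENSCAFG00000011619, at 16214 CPM (others 448 to 2152 CPM), and in ENSCAFG00000009462, at 570.3 CPM (others 164.7 to 267.9 CPM). At low levels, ENSCAFG00000011619 stood at 43.6 CPM in affected ligament replicate 2 (others 3.49 to 12.4 CPM), and ENSCAFG00000005717 at 17.4 CPM in young ligament replicate 2 (others 5.81 to 7.22 CPM).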

How the results depend on the processing

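A set of 64 single-member fits was refitted 986 times, among them fits of members whose values are given above without a test. Many of these members were chosen for large changes and many refits leave out 1 library, so a kept direction was likely beforehand. Direction was kept in all 986 refits, the call was kept or stayed absent in 921, lost in 59 and gained in 6, and 0 reversed. DESeq2 called 43 members in young against control capsules and 62 in embryonic hips against young ligaments, within 1.5 times the edgeR counts of 41 and 60. Its counts were further from edgeR's in 4 other comparisons: 4 in affected against control capsules, 35 in young against control ligaments, 33 in affected ligaments at 4 months against adults and 8 between capsule and ligament. Of all genes, DESeq2 called 5480 of 16022 in young against control capsules and 6635 of 16235 in embryonic hips against young ligaments. In the 4 other comparisons it called 139 of 14570, 1981 of 14940, 2414 of 13283 and 704 of 15213. With 1 library or 1 dog left out, counts ran from 5 to 22 in the affected ligaments by age, from 3 to 7 between capsule and ligament (7 without the dog of affected capsule replicate 3), from 37 to 42 and 15 to 28 in young against control capsules and ligaments, from 51 to 56 and 57 to 64 in embryonic hips against young capsules and ligaments, and stayed at 0 in both disease comparisons. Of all genes, the same fits called 549 to 2203 in the affected ligaments by age and 321 to 620 between capsule and ligament. They called 4079 to 5132 and 617 to 1774 in young against control capsules and ligaments. In embryonic hips against young capsules and ligaments they called 4488 to 6052 and 5000 to 6435. In affected against control capsules and ligaments they called 2 to 41 and 0 to 1. Replicate numbers do not pair dogs across groups by the labels, and libraries did not deviate with their own number. The replicate block called 0 and 5 members in affected capsules and ligaments, 29 and 16 in young against control, and 48 and 58 in embryonic hips against young. Of all genes it called 6 and 200, 3781 and 854, and 4293 and 5503 in the same order. No paired fit was made for the ages within affected ligaments, since no number is shared. Between capsule and ligament, 4 members were called with and without the dog as the replicate block, against 474 and 250 of all genes. Scaling by library totals, added after seeing the data, shifted the median of all genes by up to 0.57 (log2) and gave 18 higher and 23 lower members in young capsules, and 3 higher and 1 lower between capsule and ligament. Of all genes, 1458 were then higher and 3337 lower in young capsules, and 332 higher and 76 lower between capsule and ligament. The number of members is set by the rule: 177 genes reach 500 CPM, 33 reach 2000 CPM, 27 reach 1000 CPM in every group, and 23 of the 69 are found by FPKM, while a mean over all libraries gives 73 and TMM-scaled CPM 69, the same 69 genes. With 3 to 7 libraries a group, a call that was not made does not show equal levels.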

Other observations

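Among the capsules, 3 members that were low in every ligament were high in the same libraries. ENSCAFG00000014025, ENSCAFG00000011619 and ENSCAFG00000005717 stood at 100487, 16214 and 8747 CPM in young capsule replicate 2 and at 70434, 2152 and 5951 CPM in young capsule replicate 5. In control capsules they stood at 77478, 4695 and 6111 CPM in replicate 5 and at 54537, 7010 and 3751 CPM in replicate 3, against 2247, 157.8 and 171.8 CPM in replicate 1 and 3488, 179.7 and 225.6 CPM in replicate 2. Control capsule replicate 5 was also the control capsule lowest in ENSCAFG00000014812, ENSCAFG00000002069 and ENSCAFG00000017018. A further member low in every ligament (10.46 CPM at most), ENSCAFG00000023094, went with these in part only. Among young capsules it was lowest in replicate 2 (290.2 CPM) and highest in replicate 5 (8533 CPM). Among control capsules it was highest in replicates 3 (28.2 CPM) and 5 (8.24 CPM). Levels within a library share its total, and these genes were picked after their values were seen.

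The 3 members called in no comparison were also the most even over the groups. The highest group mean was 1.38 times the lowest for ENSCAFG00000016020 (1018 to 2268 CPM over the libraries), 1.41 times for ENSCAFG00000007666 and 1.62 times for ENSCAFG00000017986 (1146 to 2293 CPM).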
